A study of Mus musculus with 4 samples.

Results

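Open chromatin far from protein-coding genes was described in mouse DN3 thymocytes. The regions are those in which ATAC-seq peaks were called in all 4 libraries of the study, with a summit outside every protein-coding gene and more than 50 kb from the nearest end of one. They were chosen by the peak calls themselves and by position: after merging of all peaks that overlapped by 1 bp or more on the autosomes, X and Y, a region took the summit of its peak with the highest fold enrichment. Of 36224 merged regions 16761 were called in all 4 lists, and 981 of these lay beyond 50 kb. They are called distal regions here. They made up 2.71% of all merged regions and 5.85% of those called in every library. The shared intergenic regions closer to a gene, which serve as their comparison, numbered 4940 (29.5% of the shared regions), and 10840 (64.7%) lay inside protein-coding genes. Being shared, intergenic and distant is what the rule used and is no finding.

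ATAC-seq marks accessible DNA by the insertion of adapters with a transposase. The 2 EpCAM-positive libraries came from DN3 cells held back by magnetic beads after labelling with an antibody to the adhesion molecule EpCAM. The 2 EpCAM-negative libraries came from the DN3 cells that passed unlabelled. All cells came from the thymus of wild-type mice and were flow-sorted as DN3 before the magnetic step, and the age of the mice and the sort gates are not given in the labels. The replicates are numbered 1 and 2 in each fraction, and the labels do not tie them to separate mice. The p-values below therefore measure the spread between these libraries, which may be technical.

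DN3 thymocytes are double-negative T cell precursors that rearrange the T cell receptor beta locus and pass the checkpoint of beta-selection. Accessible DNA between genes includes enhancers, which bind transcription factors and can act on a promoter over long distances, insulator sites, and the promoters of noncoding genes. Genes that steer development often lie beside long stretches without other coding genes, and several regulators of the T lineage, such as Gata3, Bcl11b and Myc, are known in the mouse to have remote enhancers there. A flanking gene is given below as a label of position, since the peak lists do not show which gene a region acts on.

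A promoter sequence could be set beside some distal regions, because the RefSeq promoter table (GRCm38.p6, 250 bases before to 50 after each gene's start) also covers noncoding genes. Of the 981 distal regions 65 overlapped such a window, with 66 genes in all, and in 24 the summit itself lay in the window. The first 2 sequences below belong to strong distal regions on chromosome 15, with summits 60 bp past and 29 bp before the start of a long noncoding RNA (lncRNA) gene. The other 2 belong to distal regions that were higher in EpCAM-positive cells, and were chosen after their values were seen. They are D130051D11Rik on the plus strand at chr15:85634346-85634645, Gm41331 on the plus strand at chr15:60141576-60141875, Gm36908 on the minus strand at chr10:25621514-25621813 and LOC115487747 on the minus strand at chr11:113173034-113173333. Each is written 5′ to 3′ along the gene. Capitals mark, on either strand, the ETS motif GGAAGT and the RUNX motif TGTGGTT, which do not overlap each other there. The windows without capitals hold neither of them. None of the 4 holds the E-box CAGCTG, the GATA motif AGATAA, the TCF1 and LEF1 motif CTTTGA or the Ikaros motif TGGGAA.
D130051D11Rik: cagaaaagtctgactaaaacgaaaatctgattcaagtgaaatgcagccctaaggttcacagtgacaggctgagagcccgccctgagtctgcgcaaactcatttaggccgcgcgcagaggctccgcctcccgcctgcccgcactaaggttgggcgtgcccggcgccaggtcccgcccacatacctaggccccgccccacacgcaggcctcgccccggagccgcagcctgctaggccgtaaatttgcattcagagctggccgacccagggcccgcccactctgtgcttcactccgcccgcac
Gm41331: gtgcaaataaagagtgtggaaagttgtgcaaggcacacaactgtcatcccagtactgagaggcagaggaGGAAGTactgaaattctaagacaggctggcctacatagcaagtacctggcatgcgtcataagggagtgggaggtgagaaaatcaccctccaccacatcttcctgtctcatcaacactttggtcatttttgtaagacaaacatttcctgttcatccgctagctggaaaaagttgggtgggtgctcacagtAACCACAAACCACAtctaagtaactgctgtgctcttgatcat
Gm36908: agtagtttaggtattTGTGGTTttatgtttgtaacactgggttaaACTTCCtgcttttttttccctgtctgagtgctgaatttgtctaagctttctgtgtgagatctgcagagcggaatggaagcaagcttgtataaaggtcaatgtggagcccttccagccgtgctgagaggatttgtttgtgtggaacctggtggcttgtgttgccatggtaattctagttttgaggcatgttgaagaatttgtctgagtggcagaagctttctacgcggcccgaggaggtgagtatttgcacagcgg
LOC115487747: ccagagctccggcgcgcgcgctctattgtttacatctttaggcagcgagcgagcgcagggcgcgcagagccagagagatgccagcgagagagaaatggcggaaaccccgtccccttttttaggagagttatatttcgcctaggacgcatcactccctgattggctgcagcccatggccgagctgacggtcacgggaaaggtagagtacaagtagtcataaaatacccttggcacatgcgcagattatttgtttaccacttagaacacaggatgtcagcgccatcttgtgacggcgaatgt
Gm41331 held 1 ETS motif and a pair of adjoining RUNX motifs, and Gm36908 held 1 of each. The D130051D11Rik window was 63.7% G and C. Across the 66 genes with a window at a distal region, each taken with the window nearest to the summit, 34.8% held the ETS motif and 15.2% the RUNX motif, against 23.8% and 5.27% of all 32851 promoter windows of 27025 genes in the table, where a gene can have several. The shares for CAGCTG were 19.7% against 16.3%, for CTTTGA 21.2% against 16%, for TGGGAA 30.3% against 25.6% and for AGATAA 7.58% against 11.2%. The NFY motif CCAAT was in 28.8% against 37.4%, the GC box GGGCGG in 36.4% against 35.7%, the AP-1 motif TGANTCA in 9.09% against 7.81%, the general E-box CANNTG in 77.3% against 72.3% and TATAAA in 15.2% against 13.6%. The core motif of CTCF was in 10.6% against 9.24%, and the cyclic AMP response element TGACGTCA in 3.03% against 1.79%. These shares are descriptions of letters in a window, with no test, and do not show binding.

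The lists held 26029 and 29030 peaks for EpCAM-positive cells and 24598 and 25924 for EpCAM-negative cells. The number of reads per library is unknown here. As a gauge of depth, the lowest local background solved from any peak was 0.388 and 0.383 for EpCAM-positive cells against 0.290 and 0.286 for EpCAM-negative cells. The q-value is the peak caller's p-value after its adjustment for multiple testing, and the weakest listed peak had a −log10 q of 2.07 and 2.02 for EpCAM-positive cells against 1.32 and 1.34 for EpCAM-negative cells, so the lists also differ in threshold. Among 10 DN3 marker genes, 7 held a shared region in the gene or within 1 kb of an end. Ptcra, Rag1 and Rag2 held none. Of the markers of other cells the sort could hold, a shared region was found at 4 of 10 thymic epithelial, 3 of 9 myeloid and dendritic, 2 of 8 B lineage, 2 of 7 NK and innate lymphoid and 2 of 5 erythroid and megakaryocyte genes. Mixed-in cells were not tested as a part of any result.

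In each of the 4 libraries distal regions had lower peaks and a smaller peak width, at the median, than intergenic regions within 50 kb. The height of a peak is given as its summit pileup, the number of reads or fragments stacked at the summit, solved from the authors' fold enrichment and p-value. The median pileup of distal regions was 18 and 20 for EpCAM-positive cells and 16 and 18 for EpCAM-negative cells. Within 50 kb it was 32 and 34 in the EpCAM-positive libraries and 26 in each EpCAM-negative library. The difference in median log2 pileup, distal minus within 50 kb, was −0.81 and −0.75 for EpCAM-positive cells and −0.68 and −0.52 for EpCAM-negative cells, with a mean of −0.69 ± 0.13 (SD, n = 4 libraries). It was below 0 in 4 of 4 libraries, with an exact two-sided sign-flip permutation p of 0.125, the smallest that 4 libraries allow, so the design cannot reach 0.05. Measured as the authors' fold enrichment in place of the pileup, the mean difference was −0.24.

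**Figure D1:**
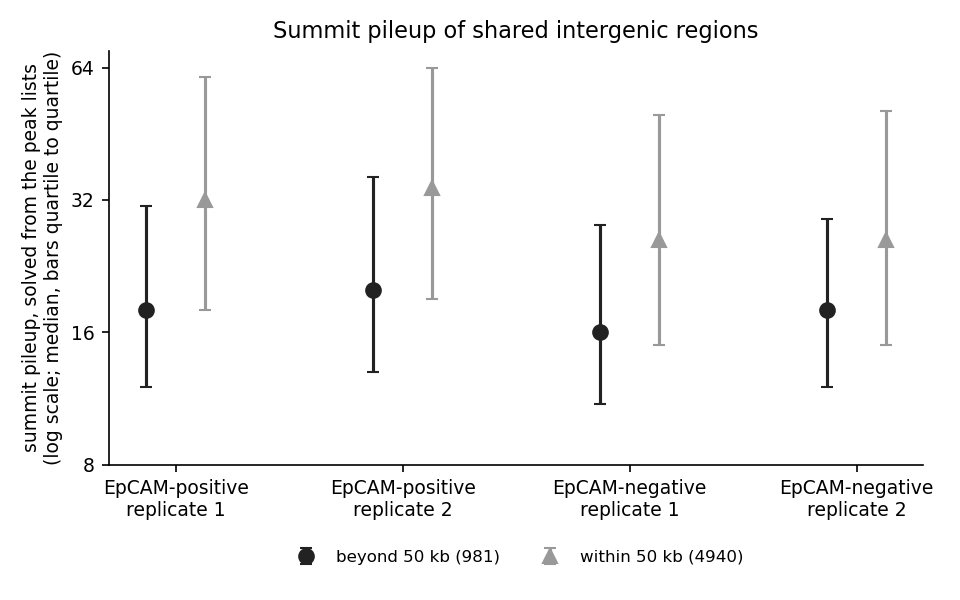
Median summit pileup (log scale) of the 981 distal regions (circles) and of the 4940 shared intergenic regions within 50 kb of a coding gene (triangles) in each library, with bars spanning the quartiles over regions. The circles sit at 16 to 20 and the triangles at 26 to 34.

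Peak width followed the same order. The median width in distal regions was 466 and 463 bp for EpCAM-positive cells and 418 and 414 bp for EpCAM-negative cells. Within 50 kb the median was 606 and 575 bp for EpCAM-positive cells and 528 and 505 bp for EpCAM-negative cells. Distal minus within 50 kb, the widths differed by −140, −112, −110 and −91 bp, a mean of −113 ± 20.2 bp (SD, n = 4 libraries; exact sign-flip permutation p = 0.125, again the smallest possible). Merged over the lists, distal regions had a median width of 576 bp, against 685 bp within 50 kb. Strength is given below as the percentile of a peak's −log10 q within its own list, averaged over the 4 lists. By that measure the median distal region stood at 53.0 and the median region within 50 kb at 68.1, and 60 distal regions (6.12%) against 925 regions within 50 kb (18.72%) reached a percentile of 90 or more.

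Distance to the nearest coding gene ran from 50007 bp to 1765123 bp, with a median of 102005 bp and quartiles of 68193 and 185303 bp. Between 50 and 100 kb lay 483 distal regions, between 100 and 200 kb 283, between 200 and 500 kb 171, and beyond 500 kb 44. Strength did not fall steadily along these classes, with median percentiles of 54.1, 54.2, 46.6 and 54.8. Regions at a percentile of 90 or more numbered 34, 16, 10 and 0. The chromosomes contributed unevenly. On chromosomes 14 and 12, 10.78% and 10.73% of the shared regions were distal, against 1.69% on chromosome 11 and 2.46% on chromosome 7. Of the 61 on chromosome 14, 16 lay in the T cell receptor alpha and delta locus. Of the 71 on chromosome 12, 16 lay in the immunoglobulin heavy chain locus. The segments of both loci do not count as coding genes. Chromosome Y stood at 37.5%, on 8 shared regions.

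Between the fractions few distal regions differed past the threshold. The comparison asks where accessibility differs between DN3 cells with and without EpCAM on their surface, and the rule names neither fraction. The contrast is not wholly independent of the rule, however, since a region had to be called in every list and the EpCAM-positive lists begin at a higher −log10 q. In a bulk library, fewer cells with an open site and a less open site in each cell cannot be told apart. The log2 pileup of each library was centred on all 16761 shared regions, and every region was fitted with limma. Of the 981 distal regions 13 passed a Benjamini-Hochberg adjusted p of 0.05, 3 higher and 10 lower in EpCAM-positive cells, or 1.33%. The background over all shared regions was 112 called, or 0.668%, with 44 higher (0.263%) and 68 lower (0.406%). Of the regions within 50 kb 41 were called, 18 higher and 23 lower. Whether the shares differ was not tested. At an unadjusted p under 0.05 stood 178 distal regions (18.1%), 38 higher and 140 lower, against 2234 of all shared regions (13.3%), 1040 higher and 1194 lower. That split depends on the scaling: without any, 149 distal regions were higher and 22 lower, against 4016 and 204 of all shared regions. With scaling by the lowest background, 3 distal regions were called higher and 23 lower, against 18 and 204 of all shared regions.

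These calls rest on the scaling and on single libraries. All 13 kept their direction in every alternative in which they were tested. However, none of them, and no other shared region, was called with the authors' fold enrichment as the value or without scaling. With the fold enrichment 121 distal regions (12.3%) had an unadjusted limma p under 0.05, against 10.1% of all shared regions. Without scaling 171 (17.4%) stood at that level, against 25.2% of all shared regions. Without EpCAM-positive replicate 1 there was 1 call, without EpCAM-negative replicate 2 there were 3, and without EpCAM-negative replicate 1 there were 21. In those fits the lone library of a fraction is assumed to vary like the others. The number of calls over all shared regions moved in the same direction as that of distal regions in each of them.

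**Figure D2:**
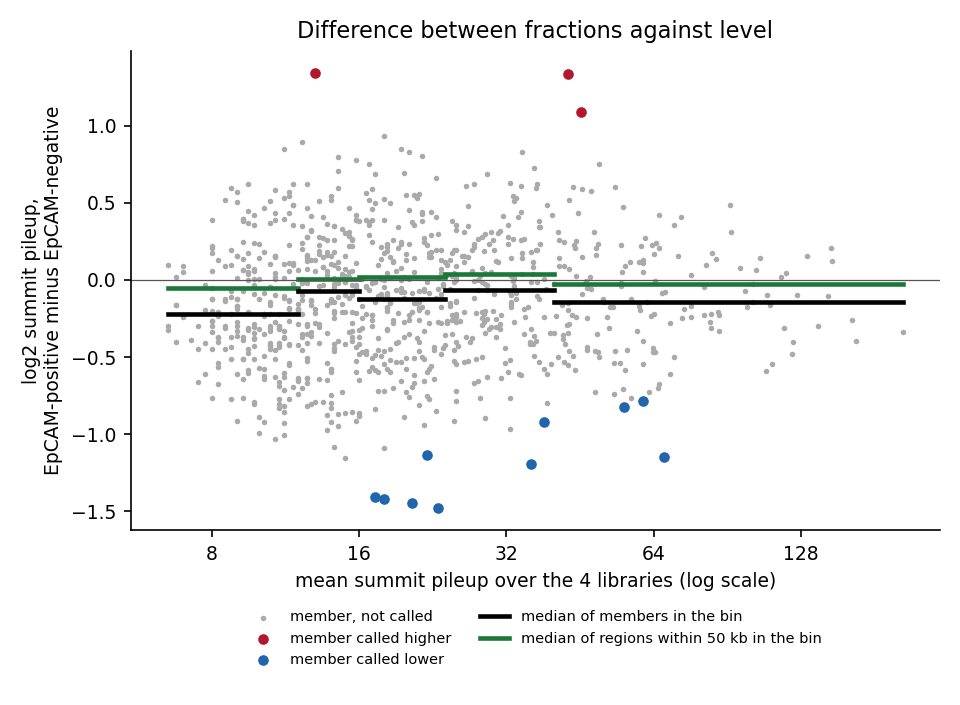
Log2 summit pileup, EpCAM-positive minus EpCAM-negative (vertical), against the mean pileup over the 4 libraries (horizontal, log scale) for the 981 distal regions, with medians per pileup bin for distal regions (black) and for regions within 50 kb (green). The black line runs below 0 in all 5 bins, from −0.07 to −0.22, and the 13 called regions are drawn in red (higher) and blue (lower).

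The median distal region lay slightly lower in EpCAM-positive cells, relative to all shared regions, but the libraries of the fractions overlapped. The median log2 difference of distal regions was −0.13, with 612 lower and 369 higher. That of regions within 50 kb was −0.006 and that of all shared regions 0.004. The medians of the centred log2 pileup over distal regions were 4.08 and 4.18 for EpCAM-positive cells and 4.17 and 4.37 for EpCAM-negative cells, which overlap. An exact two-sided permutation test over the 4 libraries gave p = 0.667, where 0.333 is the smallest possible. Without scaling the same median was 0.17 and that of all shared regions 0.30, so the sign depends on the centring, and the distal regions stayed below the shift of all regions. With the authors' fold enrichment as the value the median was −0.03, against 0.003 for all shared regions. In bins of mean pileup (under 12, 12 to 16, 16 to 24, 24 to 40, and 40 or more, added after the data were seen) the median over distal regions was −0.22, −0.07, −0.12, −0.07 and −0.14, against −0.05, 0.01, 0.02, 0.04 and −0.02 for regions within 50 kb. On the centred scale, fractions did not overlap at 146 distal regions that were higher and 326 that were lower in EpCAM-positive cells. Over all 16761 shared regions these counts were 3626 and 3649. For the typical distal region the SD between replicates was 0.30 on the log2 scale in either fraction.

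At the limit set by the rule, regions on either side are given as a description. The nearest distal region lay 50007 bp from Tmem26, with pileups of 10 and 12 in EpCAM-positive and 8 and 11 in EpCAM-negative cells, and the others lay 50113 bp from Gpc5 and 50294 bp from Psd2. The nearest excluded regions lay 49943 bp from Tle3, 49893 bp from Smndc1 and 49878 bp from Cop1, and the first of them had pileups of 34 and 38 in EpCAM-positive and 31 and 36 in EpCAM-negative cells. The region near Gpc5, chr14:115041893-115042273, lies 1583 bp from Mir17, the first microRNA of the cluster miR-17-92, whose products restrain pro-apoptotic and phosphatase messages in lymphocytes. Its pileup was 35 and 51 in EpCAM-positive and 21 and 23 in EpCAM-negative cells, so the fractions did not overlap, with a log2 difference of 0.63 ± 0.26 (SE, limma) and a Benjamini-Hochberg adjusted p of 0.253. A neighbour 2884 bp from Mir17 had 27 and 32 against 34 and 24, and there the fractions overlapped.

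The strongest distal regions stood beside genes of varied function, and none of them differed past the threshold between the fractions. The first by percentile was chr1:51584663-51585461, 106667 bp upstream of Nabp1, which encodes a single-stranded DNA binding protein. Its pileup was 199 and 209 in EpCAM-positive and 208 and 212 in EpCAM-negative libraries, the highest of any distal region in every library. The second, chr10:43740206-43740964, lies between Qrsl1 and Cd24a, the gene of a surface glycoprotein of immature thymocytes, and 785 bp from an end of the lncRNA gene Gm40634. Its pileup was 173 and 167 in EpCAM-positive against 131 and 123 in EpCAM-negative libraries. These raw pileups do not overlap, but against the shift of all shared regions the log2 difference was 0.12 ± 0.15 (SE; limma adjusted p = 0.782).

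The third was the region at the D130051D11Rik promoter printed above, chr15:85634382-85635129, between Wnt7b and Ppara, with its summit 60 bp past the start of the lncRNA. It had 152 and 178 in EpCAM-positive and 167 and 154 in EpCAM-negative libraries. Next in the list came regions beside Sall3 and Tbl1xr1, and then chr2:9593716-9594509, downstream of Gata3, whose product is needed for commitment to the T lineage. That region lies 293855 bp from the annotated start of Gata3, and had a pileup of 138 and 167 in EpCAM-positive against 108 and 114 in EpCAM-negative libraries. A T cell enhancer of Gata3 has been mapped far downstream of the gene in the mouse, and whether this region is that element was not tested.

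Others of the 15 strongest flanked known regulators. The region chr13:28417252-28418570, 1319 bp wide and 535978 bp downstream of the start of Sox4, a SOX-family transcription factor expressed in thymocytes, had 150 and 170 in EpCAM-positive against 159 and 185 in EpCAM-negative libraries. A region 93455 bp upstream of Id2, an inhibitor of E-protein transcription factors, had 127 and 150 against 137 and 140 in the same order. A region 327059 bp upstream of Runx1, which encodes a core factor of blood and T cell development, had 113 and 120 in EpCAM-positive and 100 and 103 in EpCAM-negative libraries. These raw pileups do not overlap, but against the shift of all shared regions the log2 difference was −0.10 ± 0.16 (SE, limma). A region 89516 bp upstream of Tnfaip3, which encodes the NF-κB inhibitor A20, had 92 and 124 in EpCAM-positive and 93 and 99 in EpCAM-negative libraries. None of the 15 passed an adjusted p of 0.05 between the fractions (limma), and their adjusted p-values ran from 0.0807 to 0.93; 3 had an unadjusted p under 0.01, with estimates of −0.40, −0.59 and −0.54 beside Sox4, Akap6 and Lrpprc.

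The 3 distal regions called higher in EpCAM-positive cells were beside Lef1, beside Sox9 and at a lncRNA promoter. The region chr3:131014048-131014716 lies 95930 bp upstream of Lef1, which encodes an HMG-box transcription factor that works with TCF1 in early thymocytes. Its pileup was 72 and 58 in EpCAM-positive against 21 and 20 in EpCAM-negative libraries, and its log2 difference was 1.34 ± 0.24 (SE; limma adjusted p = 0.00406). The region chr11:113172593-113173458 lies between Slc39a11 and Sox9, 385024 bp from Sox9, with its summit 302 bp past the start of LOC115487747, whose promoter is printed above. It had 74 and 58 in EpCAM-positive against 28 and 22 in EpCAM-negative libraries, a log2 difference of 1.09 ± 0.23 (SE; limma adjusted p = 0.02).

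The region chr10:25621368-25621885, between Smlr1 and Tmem200a, has its summit 77 bp past the start of Gm36908, also printed above. Its pileup was 17 and 23 in EpCAM-positive and 6 in each EpCAM-negative library, with a log2 difference of 1.34 ± 0.32 (SE; limma adjusted p = 0.0382). At these regions the local background was also higher in EpCAM-positive cells. It was 3.53 and 3.68 against 1.72 and 1.70 near Lef1, 6.67 and 5.69 against 3.07 and 2.93 near Sox9, and 0.744 and 0.984 against 0.290 and 0.339 at Gm36908, EpCAM-positive cells first. With the fold enrichment, which divides by this background, neither these 3 nor any other shared region was called (limma). The background was solved from the same peak, and how far the peak's own reads raise it was not tested.

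**Figure D3:**
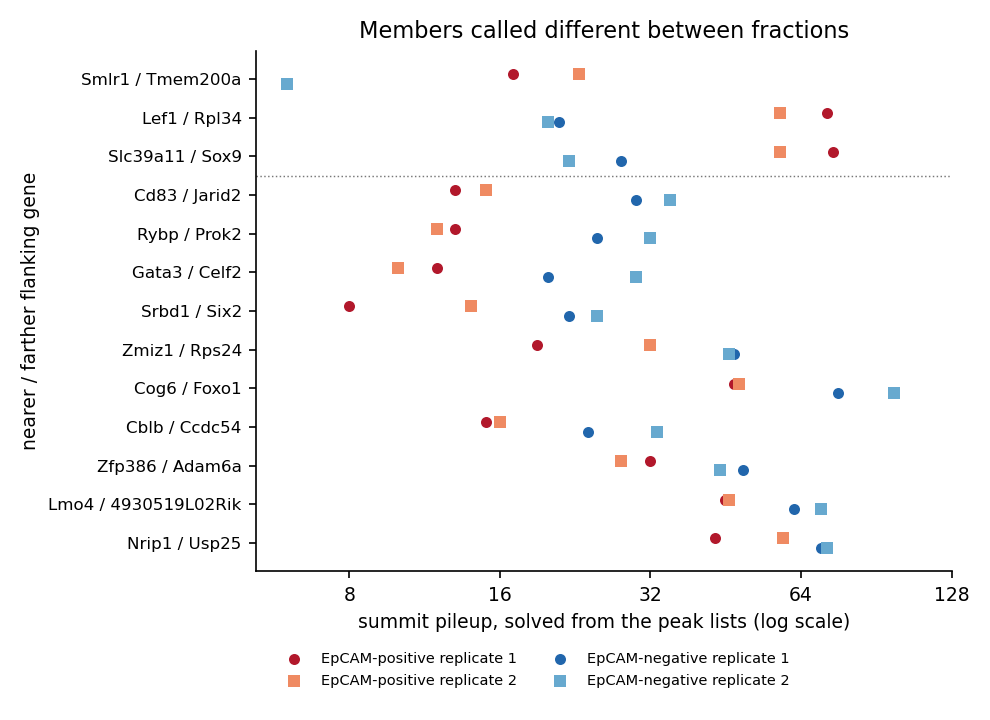
Summit pileup (log scale) in each library at the 13 distal regions called different between fractions, named by the nearer and the farther flanking coding gene; EpCAM-positive libraries are red and orange, EpCAM-negative libraries dark and light blue. The 3 regions above the dotted line are higher and the 10 below it lower in EpCAM-positive cells, and at each region the fractions do not overlap.

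The 10 distal regions called lower in EpCAM-positive cells were scattered over 8 chromosomes and included neighbours of Gata3 and Foxo1. The largest difference was at chr13:44065555-44066328, between Cd83, the gene of a surface protein of dendritic and thymic epithelial cells, and Jarid2, which encodes a cofactor of Polycomb repressive complex PRC2. Its pileup was 13 and 15 in EpCAM-positive against 30 and 35 in EpCAM-negative libraries, a log2 difference of −1.48 ± 0.28 (SE; limma adjusted p = 0.00852). The region chr6:100011617-100012097, between Rybp, the gene of another Polycomb protein, and Prok2, had 13 and 12 in EpCAM-positive against 25 and 32 in EpCAM-negative libraries (−1.44 ± 0.29; adjusted p = 0.0149).

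The region chr2:9116686-9117200 lies 771088 bp downstream of the start of Gata3, far beyond the strong region described above. It had 12 and 10 in EpCAM-positive and 20 and 30 in EpCAM-negative libraries (−1.42 ± 0.31; limma adjusted p = 0.0247). The strong region nearer to Gata3 had an estimate of 0.15 ± 0.16 and an adjusted p of 0.733 in the same fit. The region chr3:52878199-52878800, between Cog6 and Foxo1, lies 610079 bp downstream of the start of Foxo1, which encodes a forkhead factor that maintains Il7r expression in T cells. Its pileup was 47 and 48 in EpCAM-positive and 76 and 98 in EpCAM-negative libraries (−1.15 ± 0.20; limma adjusted p = 0.00315), the smallest adjusted p of all distal regions.

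A region 157996 bp upstream of Zmiz1, whose product is a cofactor of Notch1 in thymocytes, had 19 and 32 in EpCAM-positive against 47 and 46 in EpCAM-negative libraries (−1.20 ± 0.25; limma adjusted p = 0.0189). A region 340195 bp upstream of Cblb, the gene of a ubiquitin ligase that restrains T cell receptor signalling, had 15 and 16 against 24 and 33 in the same order (−1.14 ± 0.29; limma adjusted p = 0.0499). Between Srbd1 and Six2 the pileup was 8 and 14 in EpCAM-positive against 22 and 25 in EpCAM-negative libraries. Beside Lmo4, which encodes a LIM-only adaptor protein, it was 45 and 46 against 62 and 70, and upstream of Nrip1, the gene of a corepressor of nuclear receptors, 43 and 59 against 70 and 72, each with EpCAM-positive cells first. The adjusted p-values of those 3 were 0.0286, 0.0444 and 0.0499 (limma), and the remaining region lies among the immunoglobulin heavy chain segments, described below. The local background was lower in EpCAM-positive cells at some of the 10 regions and alike at others. Between Cd83 and Jarid2 it was 1.06 and 0.856 in EpCAM-positive against 1.68 and 1.82 in EpCAM-negative libraries. Near Foxo1 it was 2.23 and 2.16 against 2.71 and 3.54 in the same order. Upstream of Nrip1 it was 2.33 and 2.31 against 2.33 and 2.27. With the fold enrichment none of the 10 was called either (limma).

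Distal regions lay in 493 gaps between coding genes. Of these gaps 296 held 1, 160 held 2 to 4 and 37 held at least 5, the last with 266 distal regions among them. The gaps long enough to hold a distal region were not counted, so whether the regions cluster was not tested. The gap between Gm36448 and Dad1, which holds the T cell receptor alpha and delta segments, had 16. The gap between Adam6a and Zfp386, within the immunoglobulin heavy chain locus, and the gap between Uaca and Tle3, the gene of a Groucho-family corepressor, had 15 each. Then came Irf2bp2 to Tomm20 with 10, Prl5a1 to Sox4 and Haao to Zfp36l2 with 9 each, and Id2 to Rnf144a and Ets2 to Psmg1 with 8 each, level with other gaps. A long gap can hold more regions than a short one, and no correction was made for length: the Tra/Trd gap spans 1694129 bp, and that of Uaca and Tle3 491895 bp.

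In the gap of Uaca and Tle3 the 15 summits fell within 286437 bp, with 7 higher and 8 lower in EpCAM-positive cells. The strongest there, chr9:60998736-60999674, had 98 and 120 in EpCAM-positive against 86 and 81 in EpCAM-negative libraries. Against the shift of all shared regions its log2 difference was 0.08. Beside Zfp36l2, which encodes an RNA-binding protein that speeds the decay of AU-rich messages, the region chr17:84116267-84116905 had 91 and 105 in EpCAM-positive against 66 and 75 in EpCAM-negative libraries. Its log2 difference against the shift of all shared regions was 0.175. Averaged over the 4 libraries it also had the highest local background of the distal regions, at 13.7 and 15.8 against 12.7 and 14.1. Downstream of Bcl2l11, the gene of the pro-apoptotic protein Bim, 8 distal regions were found in the gap with Spdye4c. Their strongest, chr2:128294478-128295689, lies 3430 bp from an end of Morrbid, a lncRNA that restrains Bcl2l11 in myeloid cells of the mouse, and had 101 and 129 in EpCAM-positive against 136 and 124 in EpCAM-negative libraries. No distal region in these 3 gaps was called.

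Of 55 listed transcription factor genes of the T lineage 23 flanked at least 1, with 95 distal regions in all, which is 9.68% of them. The same genes flanked 100 of the regions within 50 kb, or 2.02%. Only a gene beside a long gap can flank a distal region, so the distance rule itself bears on these shares. No correction was made for gap length. The median log2 difference of the 95 was −0.24, against −0.13 over all distal regions, and 1 was called higher and 2 lower, beside shares of 1.33% called among all distal regions and 0.668% among all shared regions. Sox4 and Hes1, a repressor induced by Notch, flanked 9 each, Id2, Ets2 and Satb1 8 each, Lef1 7, and Foxo1, Gata3 and Runx1 6 each. Bcl11b, required for T lineage commitment, flanked 5, and Myc, a driver of growth after beta-selection, flanked 4.

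**Figure D4:**
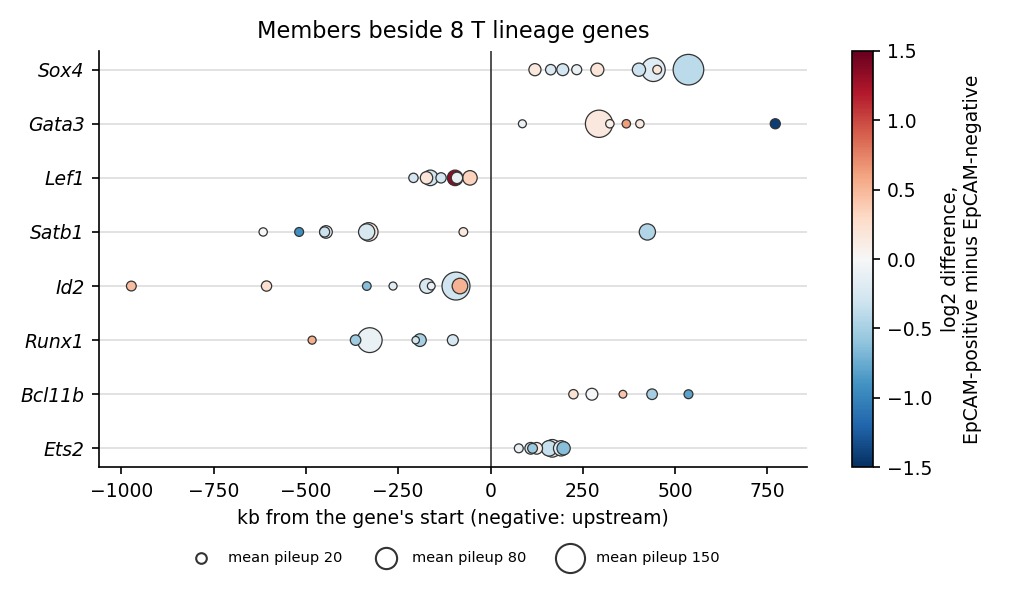
Distal regions beside 8 T lineage genes, placed by distance in kb from the annotated gene start (negative is upstream), with circle area proportional to the mean pileup over 4 libraries and colour giving the log2 difference, EpCAM-positive minus EpCAM-negative. Beside Lef1 all 7 lie upstream and 1 is dark red (1.34), and beside Gata3 all 6 lie downstream and the farthest is dark blue (−1.42).

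Near Lef1 the called region stood out from its neighbours in size of difference. The other 6 had estimates from −0.29 to 0.34, and none passed the threshold. The next region towards the gene, 90768 bp upstream of it, had 22 and 27 in EpCAM-positive and 20 and 23 in EpCAM-negative libraries, and the one nearest to Lef1, 55635 bp upstream, had 52 and 39 in EpCAM-positive and 25 and 33 in EpCAM-negative libraries. Whether the called region differs from these neighbours was not tested. All 6 regions beside Foxo1 had estimates below 0, from −0.32 to −1.15, and the one near Cog6 was the single call. Beside Ets1, which encodes the founding ETS factor, the region chr9:32928413-32929187 had 73 and 61 in EpCAM-positive against 32 in each EpCAM-negative library. Its log2 difference of 0.75 ± 0.22 (SE) had an adjusted p of 0.0895 (limma), which missed the threshold of 0.05.

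The strongest of the 4 regions flanked by Myc, chr15:63255415-63256153, lies 1265454 bp from the gene. It had 31 and 37 in EpCAM-positive and 30 and 45 in EpCAM-negative libraries, so the raw pileups overlapped. Against the shift of all shared regions its log2 difference was −0.41 ± 0.25 (SE; limma adjusted p = 0.488). A Notch-dependent Myc enhancer of T cells lies more than a megabase from the gene in the mouse, and the identity of this region with it was not tested. The strongest beside Bcl11b, 437484 bp downstream of its start, was weak, with 19 and 18 against 22 and 21, EpCAM-positive cells first. Beside Satb1, the gene of a chromatin organiser of thymocytes, the strongest was 329669 bp upstream, with 75 and 65 in EpCAM-positive and 55 and 49 in EpCAM-negative libraries, and an estimate of 0.13 ± 0.20 (SE). Of 48 receptor and signalling genes 6 flanked 19 distal regions (1.94%, against 1.6% of regions within 50 kb), with no call (limma). Those 6 genes were Ptprc, Cxcr4, Kit, S1pr1, Cd28 and Prkcq. A region 100820 bp from S1pr1, the gene of the receptor that guides exit from the thymus, had 106 and 130 in EpCAM-positive and 110 and 128 in EpCAM-negative libraries.

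The antigen receptor loci held 42 of the distal regions, because their gene segments are not annotated as protein-coding genes. The T cell receptor alpha and delta locus held 16 of its 17 shared regions as distal regions, the beta locus 7 of 11, the gamma locus 3 of 4, and the immunoglobulin heavy chain locus 16 of 16. The immunoglobulin kappa and lambda light chain loci held no shared region. In total 23 summits lay within 1 kb of a V segment, 8 in Tra/Trd, 6 in Trb and 9 in Igh. Segments of a V family can be near copies, so that reads can be shared between them, and the labels do not say how such reads were treated.

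**Figure D5:**
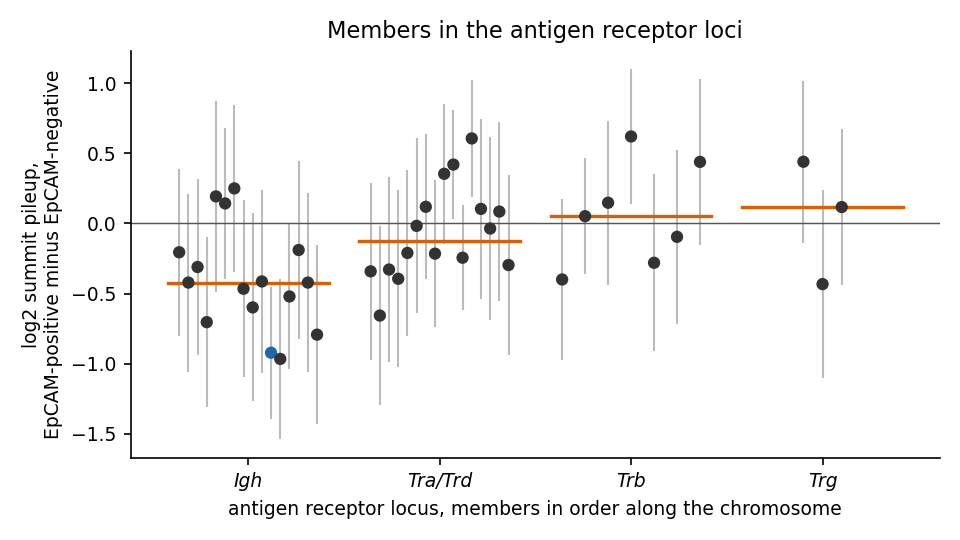
Log2 difference in summit pileup, EpCAM-positive minus EpCAM-negative, with its 95% interval (limma) at each distal region of 4 antigen receptor loci, in order along the chromosome; orange lines are medians. The median is −0.42 over 16 Igh regions, of which 1 (blue) was called, and −0.12, 0.05 and 0.12 in Tra/Trd, Trb and Trg.

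At Igh, which encodes the B cell receptor heavy chain, 13 of the 16 regions had estimates below 0. The called one, chr12:115388397-115388966, lies 1718 bp from Ighv1-62-1, with 32 and 28 in EpCAM-positive against 49 and 44 in EpCAM-negative libraries (−0.92 ± 0.23, SE; limma adjusted p = 0.0499). The largest estimate, −0.97 at 1721 bp from Ighv1-62-2, came from a region with 16 and 36 in EpCAM-positive against 33 and 45 in EpCAM-negative libraries, so the raw values overlapped (limma adjusted p = 0.0989). A region 2853 bp from an end of Ighm, chr12:113424669-113425849, had 19 and 23 against 16 and 24, EpCAM-positive cells first. Of 8 listed B lineage genes none flanked a distal region.

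In the T cell receptor loci no distal region was called (limma), and estimates ran from −0.66 to 0.62. In Tra/Trd the region at Trdv2-2, 165 bp from the segment, had 72 and 67 in EpCAM-positive against 39 and 35 in EpCAM-negative libraries, a log2 difference of 0.60 ± 0.21 (SE; limma adjusted p = 0.159). The strongest there, 1871 bp from Trav21-dv12, had 66 and 83 against 75 and 68 in the same order. Its raw pileups overlapped, and against the shift of all shared regions its log2 difference was −0.245 ± 0.19 (SE; limma adjusted p = 0.611). In Trb, the locus rearranged at this stage, the region at Trbv12-1 had 80 and 57 in EpCAM-positive and 51 and 55 in EpCAM-negative libraries. At Trbv12-2, 245 bp from the segment, the pileup was 47 and 50 against 27 and 24, with a log2 difference of 0.62 ± 0.24 (SE; limma adjusted p = 0.217). The 3 regions of Trg lay between 3173 and 9500 bp from C segments, and the strongest had 30 and 25 in EpCAM-positive against 19 and 22 in EpCAM-negative libraries. The estimate at that region was 0.12.

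Beyond the coding genes, 142 distal regions (14.5%, 95% exact Clopper-Pearson interval 12.3% to 16.8%) had a summit within 1 kb of an end of a noncoding gene. Within 50 kb the share was 19%, with an interval of 17.9% to 20.2%. The intervals cover counting error only. Ends of lncRNA genes accounted for 94 (9.58%, against 14.3%), and V segments with their pseudogenes for 23. In contrast 330 distal regions (33.6%) lay inside a noncoding gene, against 893 (18.1%) within 50 kb. The strongest of the 142 included the regions beside Cd24a and at D130051D11Rik described above. At Gm26901 the pileup was 115 and 108 in EpCAM-positive against 87 and 98 in EpCAM-negative libraries. At the Gm41331 promoter it was 60 and 61 against 61 and 76, and 23 bp from an end of Gm41386 it was 83 and 87 against 69 and 66, EpCAM-positive cells first. Against the shift of all shared regions the log2 difference was −0.03 at Gm26901, −0.47 at Gm41331 and 0.03 at Gm41386.

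Of the 94 distal regions at lncRNA ends 44 had estimates above 0 and 50 below, with 2 called higher and none lower (limma). Of the 887 others 325 were above 0 and 562 below, with 1 called higher and 10 lower. Over all shared regions 0.263% were called higher and 0.406% lower. The median difference was −0.03 at lncRNA ends and −0.14 elsewhere. The median pileup at lncRNA ends was 22.5 and 21 in EpCAM-positive and 19.5 and 19 in EpCAM-negative libraries, against 18 and 20 and 16 and 18 at the others, so the sets also differ in level. The difference between the sets was not tested.

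The 5 regions most distant from any coding gene were weak. The farthest, chr1:102255345-102255873, lies 1765123 bp from Cntnap5b and had 6 and 14 in EpCAM-positive and 6 and 8 in EpCAM-negative libraries. The next 4 lay 1411904 to 1498215 bp from a coding gene, beside Gpc5, Iftap, Pcdh17 and again Cntnap5b, and their pileups ran from 7 to 17 in EpCAM-positive and 8 to 15 in EpCAM-negative libraries. The fractions overlapped at the farthest of all, and none of the 5 was called (limma adjusted p from 0.398 to 0.959). Beyond 500 kb the median log2 difference of the 44 regions was −0.36. It was −0.13, −0.12 and −0.10 in the classes from 50 to 100, 100 to 200 and 200 to 500 kb. The median pileups beyond 500 kb were 14 and 15 in EpCAM-positive and 14.5 and 15.5 in EpCAM-negative libraries. By percentile the class was not weaker than the others, with a median of 54.8. That class includes many regions of the Igh and Tra/Trd loci, whose segments do not count as coding genes. The median over the 16 Igh regions was −0.42, and the class was not examined without these loci.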

How the data were processed

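ATAC-seq was measured in 4 libraries, 2 EpCAM-positive and 2 EpCAM-negative. Per the submitters' processing notes the build was mm10 (GRCm38), and the tools included MACS3, Bowtie2, Trimmomatic, Trim Galore and FastQC, and deepTools, bedtools, Picard and SAMtools, named without a role or version. Duplicate removal, any transposase offset shift and the settings of the peak caller were not given in the sources used here. Each library has its own deposited narrow-peak list, so no libraries were pooled for calling. Per the format of the deposited lists, each peak has a position and summit offset, a display score, a fold enrichment (a ratio to the background nearby) and a p-value and q-value, both as −log10, as the authors' peak caller wrote them. These are the authors' values for single peaks and were used to rank peaks within a list and to solve pileups.

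From the deposited fold (with 1 added to both of its terms) and the deposited −log10 p, a Poisson model gave back each peak's summit pileup and background, to within 0.01. All peaks could be solved (100%). The pileup counts reads or fragments, and which of these is not given. Log2 of the pileup plus 0.5 was centred per library on the median of all shared regions and fitted with limma 3.58.1 (R 4.3.3, mean-variance trend, Benjamini-Hochberg over 16761 regions, threshold 0.05), after a test on simulated data. The fit has 2 residual degrees of freedom per region, and the spread is shared across regions. Python 3.11.15 with pandas 2.3.3, numpy 2.4.6, scipy 1.17.1 and matplotlib 3.10.9 did the rest. Genes are RefSeq GRCm38.p6 (21887 protein-coding, 28056 noncoding), and positions are mm10, counted from 1. A gene start is that of the whole annotated span. No genome sequence was used, so motifs were searched only in RefSeq promoter windows.

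Members, gene lists and tests were chosen with earlier results of these data known. Regions were named by fixed rules: the 15 strongest, those past the threshold, the 5 farthest, the strongest beside each listed gene, the 8 fullest gaps, 10 at noncoding ends, 3 on each side of the limit and the 5 of highest local background; the others named were chosen after their values were seen. Alternatives covered distance, gene set, peak threshold, overlap, summit choice, scaling, pseudocount, fold, a pileup minimum, the replicate number as a block and each library left out.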

Additional observations from a re-analysis of the deposited data

How the results depend on the processing

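The number of distal regions was 498 with a limit of 100 kb and 154 when noncoding genes also bounded them. It stayed between 770 and 981 with stricter peaks (−log10 q of 5 or more), a stricter overlap or another summit, between 1036 and 1113 with 1 library left out, and was 939 without the antigen receptor loci, an alternative added after the data were seen. The count of calls was 13 as reported (limma throughout). With scaling by the lowest background it was 26 (2.65%, 3 higher and 23 lower, against 1.32% of all shared regions). It was 0 without scaling and 0 with the fold enrichment. With a mean pileup of 15 or more it was 7 of the 613 distal regions tested (1.14%), against 0.291% of 13728 shared regions. Of the 13 reported calls 12 were tested there. With a pseudocount of 2 it was 13 (1.33%), against 0.734% of all shared regions. With 1 library left out it ran from 1 to 21, and there a fraction has a lone library. With the replicate number as a block it was 50 (5.1%, 9 higher and 41 lower, against 4.57% of all shared regions). Same-numbered libraries deviated together with a correlation of 0.163 over 16761 regions, but the labels do not say that a number marks a shared animal or day, and 2 pairs cannot settle it. All 13 calls kept their direction wherever tested, and the causes of lost calls were not tested. The median log2 difference turned to 0.17 without scaling, where that of all shared regions was 0.30, and was −0.26 with background scaling, −0.03 with the fold enrichment and −0.19 to −0.07 with 1 library left out. The pileup and width differences from regions within 50 kb kept their sign, at −0.75 to −0.24 (log2) and −121 to −104 bp. The share at noncoding gene ends was 11.2% within 500 bp, against 14.5% within 1 kb. Read totals are unknown, and the effect of depth on these differences was not tested.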

Other observations

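Other listed genes flanked few distal regions. Among 9 myeloid and dendritic genes Tcf4, which encodes an E protein also expressed in lymphoid cells, flanked 3, and its strongest lay 624363 bp away with 17 and 19 in EpCAM-positive against 21 and 23 in EpCAM-negative libraries. Of 7 NK and innate lymphoid genes Eomes flanked 1, with pileups of 10 and 10 against 14 and 9 in the same order. Thymic epithelial and erythroid and megakaryocyte genes, 10 and 5 in number, flanked none. Of 30 neural and mesodermal regulators, genes that often border gene deserts, 4 flanked 5 distal regions (0.51%, against 0.182% of regions within 50 kb), namely Sox9, Irx5, Sox2 and Tfap2a. Beside Tfap2a, which encodes a factor of neural crest and skin, the pileup was 30 and 41 in EpCAM-positive and 37 and 26 in EpCAM-negative libraries. Beside Irx5 it was 11 and 15 in EpCAM-positive and 6 and 9 in EpCAM-negative libraries. Beside Runx3, whose product silences Cd4 in the CD8 lineage, a region 53512 bp upstream had 44 and 41 in EpCAM-positive against 22 and 25 in EpCAM-negative libraries, with a log2 difference of 0.55 and an adjusted p of 0.32 (limma). Beside Ikzf2, the gene of Helios, the pileup was 52 and 72 against 68 and 85, EpCAM-positive cells first. The 3 distal regions on chromosome Y were among 8 shared regions there.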
